A study of Mus musculus with 12 samples.

Results

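The genes of DNA replication and of the repair that accompanies it were followed in Treg, the regulatory branch of CD4 T cells, which hold back immunity and depend on the transcription factor Foxp3. The 58 genes were chosen by name from the 55011 gene symbols of the count table, and comprise the origin licensing factors, the helicase, the polymerases, the sliding clamp and its loader, the enzymes of nucleotide supply, the chaperones that rebuild chromatin behind the fork, and the recombination and checkpoint genes. The choice was made with earlier results of these data known. All 58 were in the table and all passed the low-count filter that left 13295 genes for testing. RNA was sequenced from 12 libraries, each made from a small pool of sorted cells, taken from 21-day-old male C57BL/6 mice, 3 libraries in each of 4 groups.

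In the spleen WT and lung WT groups the genotype was Foxp3.ires.GFP, an intact Foxp3 with a green reporter. The genotype of the spleen ∆Foxp3 group was given as ∆Foxp3.EGFP.iCre X R26.YFP, a deleted allele with a green reporter and Cre recombinase in mice that also have a yellow reporter at the Rosa26 locus. The genotype of the lung ∆Foxp3 group was given as ∆Foxp3.ires.GFP, so that by these labels the tissue and the allele cannot be told apart between the ∆Foxp3 groups. The extraction protocol names this last allele for both tissues, and the sources used here do not say which part of Foxp3 the alleles lack. All groups shared the sort for live cells positive for TCRβ, CD4, GFP and CD25. Spleens were dissociated mechanically, whereas lungs were perfused, digested with collagenase and enriched for CD4 cells by magnet. Whether each library is from its own mouse is not stated in the labels, so p-values reflect variation among libraries and this may be technical alone. In either tissue an effect of the allele within the cell cannot be told apart from an effect of the surroundings in ∆Foxp3 mice.

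A cell that leaves rest prepares to copy its genome in an ordered series. In G1 the origin recognition complex, with Cdc6 and Cdt1, loads the ring-shaped Mcm2 to Mcm7 helicase onto origins, and in S phase Cdc45 and the GINS complex turn that ring into the working helicase. Polymerase alpha with primase starts each strand, polymerases delta and epsilon extend it on the Pcna clamp, and flap and ligase enzymes join the fragments. Many of these genes are targets of the E2F transcription factors, which are released when the cell commits to division, and resting lymphocytes keep them low.

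Library totals ran from 3958892 to 9025150 counts, so that 3 counts in a library, the floor used here, corresponded to 0.332 to 0.758 CPM, the count scaled by the library total and the TMM factor to a common size. The T cell genes Cd3e and Cd4 were at 663 to 927 and 604 to 917 CPM over the 12 libraries. Every ∆Foxp3 library lay below the WT libraries of its tissue for Cd3e and above them for Cd4. Foxp3 was at 1026, 991 and 1096 CPM in spleen WT, 159, 114 and 227 in spleen ∆Foxp3, 1418, 1361 and 1328 in lung WT and 469, 385 and 189 in lung ∆Foxp3. The sum of 8 T cell and Treg genes was 6134 to 6828 CPM in spleen WT, 3839 to 4290.5 in spleen ∆Foxp3, 6517 to 6806 in lung WT and 3978 to 4936 in lung ∆Foxp3. A few libraries stood apart: spleen WT 1 had the highest total, lung WT 1 and lung ∆Foxp3 3 the most genes detected (22981 and 23649), and lung ∆Foxp3 3 a mitochondrial share of 2.44% against 1.40% to 1.63% in the others. Counts of calls are given without all 3 where they move by more than 1.5 times.

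The summed level of the 58 genes was lowest in spleen WT, intermediate in lung WT and highest in both ∆Foxp3 groups. It was 2612, 2334 and 2143 CPM in the spleen WT libraries and 3921, 4755 and 5568 CPM in lung WT. It was 10035, 13838 and 6277 CPM in spleen ∆Foxp3 and 8288, 11129 and 11453 CPM in lung ∆Foxp3. No ∆Foxp3 library fell to the level of a WT library of either tissue, and the nearest were spleen ∆Foxp3 3 and lung WT 3. The mean of spleen ∆Foxp3 was 4.25 times that of spleen WT, the mean of lung ∆Foxp3 was 2.17 times that of lung WT, and the mean of lung WT was 2.01 times that of spleen WT. Between the ∆Foxp3 groups the ratio of lung to spleen was 1.02. In such bulk libraries a larger share of cells that replicate DNA and more of this RNA in each such cell cannot be told apart.

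**Figure D1:**
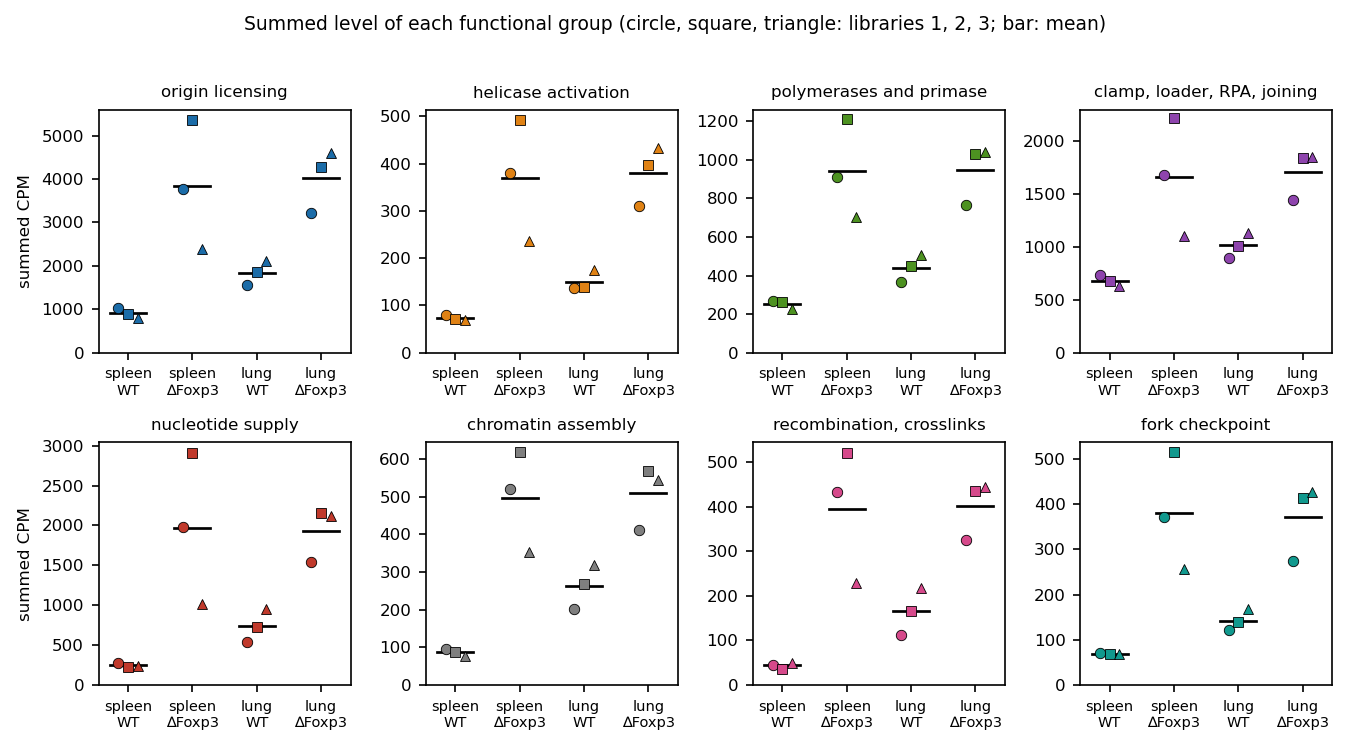
Summed CPM (vertical axis, linear from 0) of the members of each functional group in every library of the 4 groups, with circles, squares and triangles for libraries 1, 2 and 3 and a bar for the mean. In each of the 8 panels the 3 spleen WT libraries lie lowest and the ∆Foxp3 libraries of both tissues lie above those of lung WT, except in the clamp panel, where spleen ∆Foxp3 3 at 1099 CPM lies between the lung WT libraries.

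The lowest group was nearly the same for every member, whereas the highest was split between the ∆Foxp3 groups. Spleen WT was the lowest group for 56 of the 58 genes and lung WT for the other two. Lung ∆Foxp3 was the highest group for 30 and spleen ∆Foxp3 for 28. In 3 of the 4 groups most members shared a library order: spleen ∆Foxp3 2 was the highest of its group for 50 members and spleen ∆Foxp3 3 the lowest for 57. Lung ∆Foxp3 1 was the lowest of its group for 55 members, with the highest split between library 2 (26 members) and library 3 (30 members). Lung WT 1 was the lowest of its group for 43, and lung WT 3 was the highest of its group for 48. In spleen WT the order was mixed, with libraries 1, 2 and 3 highest for 31, 15 and 12 members and lowest for 12, 19 and 27. Since members share a library order in most groups, counts of members do not add up as independent observations.

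**Figure D2:**
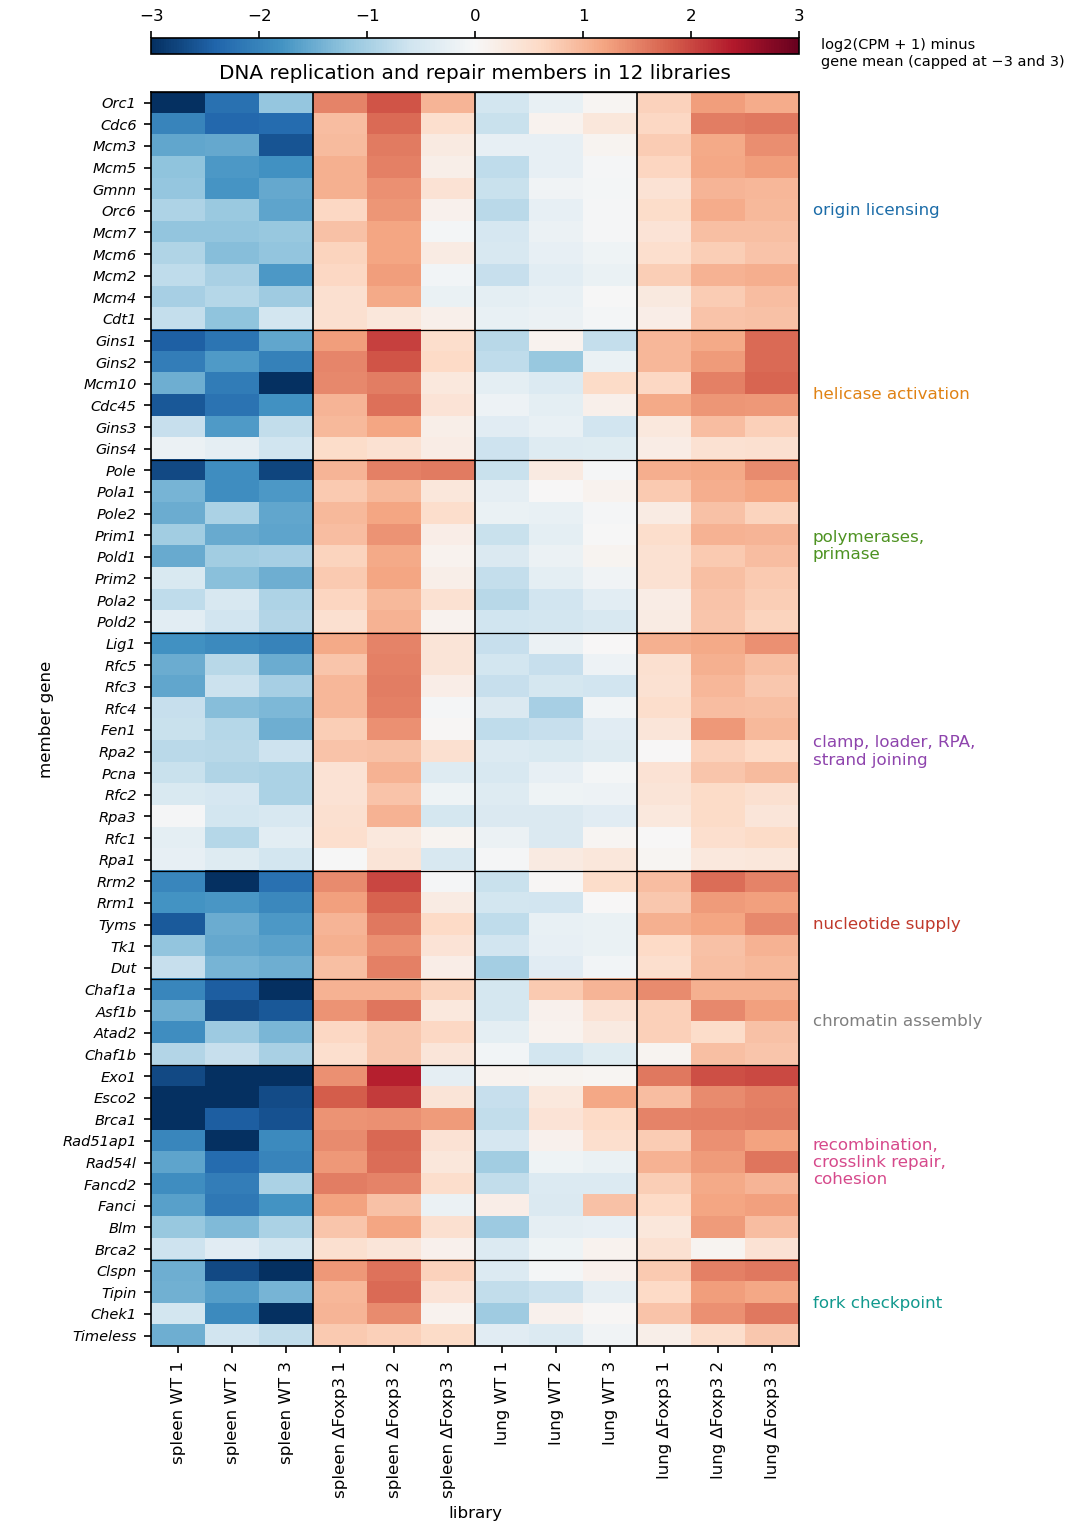
Each row is a member, each column a library, and the colour is log2(CPM + 1) minus that gene's mean over the 12 libraries, capped at −3 and 3. The 3 spleen WT columns are blue in nearly every row, the 3 lung WT columns are close to white, and the ∆Foxp3 columns are red, with spleen ∆Foxp3 2 darkest and spleen ∆Foxp3 3 palest of its group.

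Whether Treg without intact Foxp3 differ in replication genes was first asked in spleen, by the quasi-likelihood test of edgeR in a fit over all 12 libraries. Of the 58 members, 56 were higher in ∆Foxp3 than in WT at an adjusted p under 0.05 and 0 were lower, where 14.1% of all 13295 genes tested were called higher, 12.5% lower and 26.6% in either direction. The median log2 fold change of the members was 2.34, against −0.02 over all genes tested. For the same 56 members every ∆Foxp3 library lay above every WT library, which held for 18.6% of all genes tested. As the members were chosen with earlier results of these data known, these shares are a description and not an independent test. Rpa1 and Rpa3, subunits of the protein that coats bare DNA strands at the fork, were the members not called. Of the 56 calls, 54 held under every alternative processing, the others being Rfc1 (adjusted p 0.00217 to 0.0626) and Brca2 (0.00973 to 0.169).

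Among the licensing genes all 11 rose in spleen, with a median of 1.99. Mcm6 (chromosome 1, 128331590 to 128359664, mm10), a subunit of the helicase ring, was at 263, 203 and 217 CPM in spleen WT and 781, 1118 and 585 CPM in spleen ∆Foxp3, a log2 fold change of 1.86 ± 0.21 (SE; adjusted p = 1.93e-05). Values in the lung were 353, 415 and 450.4 CPM for WT and 704, 827 and 896 CPM for ∆Foxp3, with 0.99 ± 0.20 (SE; adjusted p = 0.00334). The groups did not overlap in either tissue, and the lung WT libraries lay above those of spleen WT. Mcm3 (chromosome 1, 20802968 to 20820312), another subunit of the ring, was at 107, 108 and 51.7 CPM in spleen WT, 611, 931 and 381 in spleen ∆Foxp3, 266, 263 and 332 in lung WT and 538, 688 and 828 in lung ∆Foxp3. Its spleen fold change on the log2 scale came to 2.85 ± 0.34 (SE; adjusted p = 5.53e-05), that of lung to 1.25 ± 0.32 (SE; adjusted p = 0.0146). Levels per kilobase of annotated exon put the 6 subunits, which form the ring in equal numbers, from 19.1 (Mcm2) to 48.8 (Mcm6) CPM per kb in spleen WT and from 66.022 to 177 for the same genes in spleen ∆Foxp3. The lengths merge the exons of all transcripts (6956 bases for Mcm2, 3752 for Mcm3), so the order of subunits depends on the annotation.

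Orc1 (chromosome 4, 108579423 to 108614833), the subunit of the origin recognition complex whose level follows the cell cycle, changed most of the licensing genes and Cdt1, the loader of the ring, least. Orc1 was at 0, 1.25 and 3.70 CPM in spleen WT and 28.6, 38.1 and 20.4 CPM in spleen ∆Foxp3, a log2 fold change of 4.18 ± 0.72 (SE; adjusted p = 0.000781). The lung WT libraries had 6.25, 8.03 and 10.021 CPM and the lung ∆Foxp3 libraries 16.2, 24.2 and 21.9 CPM, which did not pass the test at 1.35 ± 0.63 (SE; adjusted p = 0.144), although the groups did not overlap. Exon overlap with a transcript on the opposite strand covers 10.8% of Orc1. Cdt1 was at 54.9, 38.6 and 61.1 CPM in spleen WT, 127, 116 and 101 in spleen ∆Foxp3, 77.959, 79.6 and 86.7 in lung WT and 105, 165 and 169 in lung ∆Foxp3. It rose by 1.15 ± 0.21 in spleen and by 0.85 ± 0.20 in lung (adjusted p = 0.000912 and 0.00971). Gmnn, the inhibitor that binds Cdt1 after licensing, rose by 2.52 ± 0.27 in spleen and Cdc6, the partner of Cdt1 in loading, by 3.47 ± 0.38 (adjusted p = 1.64e-05 and 1.92e-05).

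The 6 genes that turn the loaded ring into a helicase all rose in spleen, with a median of 3.46. Cdc45 (chromosome 16, 18780447 to 18811987), which binds the ring at the start of S phase, was at 9.36, 11.970 and 16.047 CPM in spleen WT and 120.2, 188 and 79.5 in spleen ∆Foxp3. It was at 53.4, 48.2 and 65.4 CPM in lung WT and 131, 149.9 and 148 in lung ∆Foxp3. The spleen fold change on the log2 scale came to 3.38 ± 0.29 (SE; adjusted p = 3.87e-06), that of lung to 1.36 ± 0.27 (SE; adjusted p = 0.00277), with no overlap of the groups in either tissue. The 4 GINS subunits, which work as a complex of equal parts, did not rise alike. Gins1 went from 0.891, 1.25 and 2.47 CPM in spleen WT to 23.4, 41.2 and 13.8 in spleen ∆Foxp3, a log2 fold change of 4.08 ± 0.52 (SE; adjusted p = 5.9e-05). Gins4 went from 45.6, 42.2 and 33.8 CPM to 76.1, 71.2 and 60.3 CPM, with 0.77 ± 0.18 (SE; adjusted p = 0.00548). In spleen WT the level per kilobase was 30.024 CPM per kb for Gins4, 3.52 for Gins3, 1.15 for Gins2 and 1.01 for Gins1, and in spleen ∆Foxp3 it was 51.3, 13.3, 13.7 and 17.2. Gins4 was therefore the subunit with the highest level and the smallest change. In lung Gins1 was at 4.74, 10.1 and 5.27 CPM in WT and 19.4, 21.4 and 32.6 in ∆Foxp3, and Gins4 at 33.2, 38.9 and 39.9 and at 59.8, 70.4 and 71.7 CPM. Their lung fold changes were 1.88 ± 0.46 and 0.85 ± 0.18 on the log2 scale (adjusted p = 0.0106 and 0.00465). Gins2 shares 67.3% of its exons with Gse1 on the opposite strand, and the strand setting of the counting is not given, so its level is uncertain; Gse1 itself was at a log2 difference of −0.30 there (adjusted p = 0.427).

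All 8 polymerase and primase genes rose in spleen, with a median of 2.09. Pold1, the catalytic subunit of polymerase delta and the most abundant of the 8, was at 44.8, 62.5 and 64.961 CPM in spleen WT, 208, 289 and 141 in spleen ∆Foxp3, 96.3, 115 and 139 in lung WT and 181, 227 and 248 in lung ∆Foxp3. Its spleen fold change on the log2 scale came to 1.89 ± 0.25 (SE; adjusted p = 6.88e-05), that of lung to 0.91 ± 0.24 (SE; adjusted p = 0.0156). Pole (chromosome 5, 110286306 to 110337474), the catalytic subunit of polymerase epsilon, changed most. Its libraries read 4.46, 8.75 and 4.32 CPM in spleen WT and 70.8, 101 and 104 CPM in spleen ∆Foxp3, and at 21.5, 41.981 and 33.9 CPM in lung WT and 75.2, 76.9 and 93.6 CPM in lung ∆Foxp3. The 4 groups did not overlap except for the ∆Foxp3 groups with each other, and the spleen fold change on the log2 scale came to 3.999 ± 0.32 (SE; adjusted p = 2.19e-06), that of lung to 1.34 ± 0.28 (SE; adjusted p = 0.00387). Spleen ∆Foxp3 3, the lowest of its group for nearly all members, was the highest for Pole.

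The accessory subunits had the smaller fold changes in spleen. Pola2, the accessory subunit of polymerase alpha, was at 51.3, 62.7 and 45.982 CPM in spleen WT, 139, 173 and 120.4 in spleen ∆Foxp3, 48.9, 58.8 and 70.3 in lung WT and 102, 161 and 149 in lung ∆Foxp3. It rose by 1.43 ± 0.21 in spleen and 1.21 ± 0.21 in lung (adjusted p = 0.000192 and 0.00124), while the catalytic Pola1 rose by 2.41 ± 0.21 and 1.09 ± 0.20 (adjusted p = 3.87e-06 and 0.00159). Pold2, the accessory subunit of polymerase delta, was at 66.8, 56.3 and 45.2 CPM in spleen WT and 118, 175 and 89.969 in spleen ∆Foxp3, with 1.18 ± 0.23 (SE; adjusted p = 0.00176). The lung WT libraries had 54.7, 56.5 and 59.4 CPM and the lung ∆Foxp3 libraries 100.1, 149 and 134 CPM, with 1.17 ± 0.23 (SE; adjusted p = 0.00299). For Pole2, the second subunit of polymerase epsilon, the log2 fold change was 2.39 ± 0.29 in spleen (adjusted p = 3.97e-05). The catalytic Prim1 and the accessory Prim2 of primase were at 2.29 ± 0.28 and 1.79 ± 0.30 (adjusted p = 4.34e-05 and 0.000582). The difference between subunits was not itself tested.

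The clamp, its loader, the strand-coating proteins and the joining enzymes held the members that changed least. Of the 11, 9 rose in spleen and the median was 1.51. Rpa1 (chromosome 11, 75298166 to 75348324), the largest subunit of the strand-coating trimer, was at 269, 246 and 219.7 CPM in spleen WT, 319, 420.5 and 229 in spleen ∆Foxp3, 315, 387 and 404 in lung WT and 335, 401 and 409 in lung ∆Foxp3. The groups overlapped in both tissues, and the log2 difference was 0.40 ± 0.19 (SE; adjusted p = 0.143) in spleen and 0.05 ± 0.19 (SE; adjusted p = 0.893) in lung. Rpa3, the smallest subunit, was at 36.9, 25.2 and 26.8 CPM in spleen WT and 53.1, 78.9 and 25.972 in spleen ∆Foxp3, where library 3 lay among the WT libraries, with 0.82 ± 0.30 (SE; adjusted p = 0.0597). Over the alternatives that p ran from 0.00236 to 0.352 for Rpa3 and from 0.0173 to 0.575 for Rpa1. Rpa2, the middle subunit, rose by 1.51 ± 0.18 (SE; adjusted p = 3.76e-05) in spleen, and 0.89 ± 0.18 (SE; adjusted p = 0.00335) in lung. Of the trimer the middle subunit alone was called in either tissue. In lung, however, Rpa3 was at 0.84 (adjusted p = 0.0674), near the value of Rpa2, and was called in 7 of 21 alternatives. The difference between these subunits was not tested.

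Lig1 (chromosome 7, 13277283 to 13311433), the ligase that seals the fragments of the lagging strand, changed most among these 11. It was at 30.6, 28.8 and 26.5 CPM in spleen WT and 244, 313 and 144 in spleen ∆Foxp3, and at 67.6, 97.2 and 111 CPM in lung WT and 230.5, 242 and 287 in lung ∆Foxp3. The spleen fold change on the log2 scale came to 3.02 ± 0.26 (SE; adjusted p = 3.73e-06), that of lung to 1.46 ± 0.24 (SE; adjusted p = 0.000895), where it had the lowest adjusted p of all members. Pcna, the clamp itself, rose by 1.32 ± 0.27 in spleen, less than the median member (adjusted p = 0.0026). Rfc2, a subunit of the clamp loader, was at 109, 105 and 76.996 CPM in spleen WT, 202, 272 and 137 in spleen ∆Foxp3, 114, 138 and 134 in lung WT and 196, 222 and 210.2 in lung ∆Foxp3, with 1.07 ± 0.21 (SE; adjusted p = 0.00194) in spleen and 0.70 ± 0.21 (SE; adjusted p = 0.0307) in lung. Of the loader subunits, the large Rfc1 rose by 0.78 ± 0.21 (adjusted p = 0.013), and the small Rfc3, Rfc4 and Rfc5 by 2.08, 2.06 and 2.25. Fen1, the flap nuclease, rose by 1.96 ± 0.42 (SE; adjusted p = 0.00323) in spleen. Its counts are uncertain, as 78.8% of its exons are shared with an antisense gene, Gm10143, which was at 1.87 (adjusted p = 0.114).

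All 5 enzymes of deoxynucleotide supply rose in spleen, with a median of 3.01. Rrm2 (chromosome 12, 24708241 to 24714146), the small subunit of ribonucleotide reductase that limits its activity, was at 66.2, 27.5 and 54.2 CPM in spleen WT and 689, 1041 and 250.2 CPM in spleen ∆Foxp3. Values in the lung were 162, 263 and 378 CPM for WT and 495, 829.8 and 721 CPM for ∆Foxp3. The spleen fold change came to 3.74 ± 0.52 (SE; adjusted p = 0.000269) on the log2 scale. In lung the groups did not overlap, but 1.35 ± 0.47 (SE; adjusted p = 0.0621) did not pass the test. Averaged over the 12 libraries Rrm2 had the highest level per kilobase of merged exons among the 58 members, 149.7 CPM per kb, a rank that depends on the annotated lengths. Rrm1 (chromosome 7, 102441695 to 102469771), the large subunit, was at 74.956, 77.001 and 67.7 CPM in spleen WT, 609.6, 892 and 311 in spleen ∆Foxp3, 176, 175 and 262 in lung WT and 459.9, 637 and 609 in lung ∆Foxp3, with 3.04 ± 0.31 (SE; adjusted p = 1.78e-05) in spleen and 1.47 ± 0.30 (SE; adjusted p = 0.00369) in lung. Dut, which destroys dUTP, was at 81.5, 49.3 and 47.1 CPM in spleen WT, 247, 375 and 153 in spleen ∆Foxp3, 65.037, 103 and 125 in lung WT and 189, 249 and 262 in lung ∆Foxp3. It changed least of the 5, by 2.12 ± 0.33 (SE; adjusted p = 0.00043) in spleen and 1.25 ± 0.32 (SE; adjusted p = 0.0154) in lung. Tyms, thymidylate synthase, rose by 3.01 ± 0.29 in spleen and 1.62 ± 0.28 in lung, and Tk1, the cytosolic thymidine kinase, by 2.46 ± 0.24 and 1.20 ± 0.23 (adjusted p = 1.02e-05, 0.00123, 7.69e-06 and 0.00219).

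The 4 genes of chromatin assembly all rose in spleen, with a median of 2.74. Asf1b, a histone chaperone of dividing cells, was at 41.1, 17.2 and 18.979 CPM in spleen WT, 294, 356 and 146 in spleen ∆Foxp3, 79.5, 127 and 156 in lung WT and 191, 318 and 275 in lung ∆Foxp3. Its spleen fold change on the log2 scale came to 3.35 ± 0.42 (SE; adjusted p = 0.000114), that of lung to 1.11 ± 0.38 (SE; adjusted p = 0.059). Atad2, a chromatin-bound ATPase gene, was at 17.3, 30.2 and 24.4 CPM, 100.3, 115 and 100.2 CPM, 52.5, 70.2 and 79.1 CPM and 108, 96.3 and 121 CPM in the same order of groups, with 2.14 ± 0.22 (SE; adjusted p = 1.05e-05) in spleen and 0.69 ± 0.21 (SE; adjusted p = 0.0306) in lung. The subunits of the assembly factor that deposits histones at the fork differed in size of change. Chaf1a was at 3.45, 2.14 and 0.926 CPM in spleen WT, 34.8, 34.999 and 26.5 in spleen ∆Foxp3, 10.983, 28.8 and 34.1 in lung WT and 45.7, 35.3 and 35.3 in lung ∆Foxp3. It rose by 3.83 ± 0.45 (SE; adjusted p = 3.22e-05) in spleen and was at 0.65 ± 0.38 (SE; adjusted p = 0.254) in lung. Ubxn6 on the opposite strand covers 52.5% of its exons, so its level is uncertain; Ubxn6 was at −0.58 in spleen (adjusted p = 0.0812), against the direction of Chaf1a. Chaf1b was at 34.3, 39.1 and 31.8 CPM in spleen WT and 90.5, 112 and 82.5 in spleen ∆Foxp3, with 1.44 ± 0.22 (SE; adjusted p = 0.000311). The lung WT libraries had 60.1, 43.018 and 49.6 CPM and the lung ∆Foxp3 libraries 67.6, 120.3 and 115 CPM, with 0.99 ± 0.22 (SE; adjusted p = 0.00648).

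The recombination, crosslink repair and cohesion genes held the largest changes of all, and all 9 rose in spleen with a median of 3.26. Exo1 (chromosome 1, 175880581 to 175913489), a nuclease that trims DNA ends, was at 1.0024, 0.536 and 0.309 CPM in spleen WT and 32.8, 65.2 and 9.90 CPM in spleen ∆Foxp3. Values in the lung were 13.1, 12.957 and 12.7 CPM for WT and 38.1, 48.963 and 50.9 CPM for ∆Foxp3, so that lung WT held a level that spleen WT did not approach. The spleen fold change on the log2 scale came to 5.73 ± 0.64 (SE; adjusted p = 2.45e-05), that of lung to 1.83 ± 0.48 (SE; adjusted p = 0.0163). Esco2, the enzyme that locks cohesin onto newly copied DNA, rose by 5.29 ± 0.59 (SE; adjusted p = 2.62e-05) in spleen, and Brca1, a scaffold of recombination, by 5.196 ± 0.53 (SE; adjusted p = 1.16e-05). These 3 genes were at or near the floor in spleen WT, so their fitted fold changes depend on few counts and on the small count added in the fit.

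Rad54l, a motor protein of strand exchange, was at 10.4, 5.90 and 7.72 CPM in spleen WT, 83.9, 108 and 42.3 in spleen ∆Foxp3, 15.5, 30.3 and 29.008 in lung WT and 68.990, 81.7 and 104 in lung ∆Foxp3. It rose by 3.26 ± 0.36 (SE; adjusted p = 2.15e-05) in spleen and 1.76 ± 0.34 (SE; adjusted p = 0.00239) in lung. Rad51ap1, a factor of strand exchange, was at 5.35, 1.61 and 5.55 CPM, 64.7, 79.8 and 31.998 CPM, 16.4, 25.9 and 33.8 CPM and 40.6, 62.046 and 55.8 CPM in the same order, with 3.77 ± 0.44 (SE; adjusted p = 3.42e-05) in spleen and 1.06 ± 0.39 (SE; adjusted p = 0.07) in lung. Brca2, a mediator of recombination, changed least of the 9. It was at 8.02, 10.005 and 8.49 CPM in spleen WT, 18.6, 17.020 and 14.2 in spleen ∆Foxp3, 9.48, 11.7 and 13.9 in lung WT and 18.2, 13.7 and 17.9 in lung ∆Foxp3, with 0.91 ± 0.29 (SE; adjusted p = 0.0294) in spleen and 0.50 ± 0.29 (SE; adjusted p = 0.238) in lung. The spleen call of Brca2 was lost in 7 of 21 alternatives. The partners in crosslink repair, Fancd2 and Fanci, rose by 3.06 ± 0.39 and 2.82 ± 0.42 in spleen, and the helicase Blm by 2.07 ± 0.31 (adjusted p = 6.19e-05, 0.000218 and 0.000201).

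The 4 checkpoint genes, which guard stalled forks, all rose in spleen with a median of 2.60. Tipin, a fork protection factor, was at 33.4, 28.9 and 34.7 CPM in spleen WT, 185, 305 and 123 in spleen ∆Foxp3, 55.1, 58.8 and 76.1 in lung WT and 141, 222 and 208 in lung ∆Foxp3. Its spleen fold change on the log2 scale came to 2.65 ± 0.29 (SE; adjusted p = 1.81e-05), that of lung to 1.58 ± 0.28 (SE; adjusted p = 0.00133). Its binding partner Timeless was at 17.6, 33.6 and 29.6 CPM, 87.9, 82.9 and 75.046 CPM, 39.6, 37.6 and 46.6 CPM and 57.2, 73.1 and 88.5 CPM in the same order, with 1.61 ± 0.24 (SE; adjusted p = 0.000191) in spleen and 0.82 ± 0.23 (SE; adjusted p = 0.023) in lung. Both partners were thus higher in every ∆Foxp3 library of a tissue than in its WT libraries, with the larger difference for Tipin. Clspn, the adaptor that activates the checkpoint kinase Chek1, was at 7.57, 2.68 and 2.01 CPM in spleen WT and 57.7, 73.4 and 37.5 in spleen ∆Foxp3, with 3.71 ± 0.43 (SE; adjusted p = 3.03e-05). The lung WT libraries had 17.013, 22.027 and 24.964 CPM and the lung ∆Foxp3 libraries 40.1, 66.6 and 70.1 CPM, with 1.46 ± 0.39 (SE; adjusted p = 0.0158). Chek1 itself was at 2.55 ± 0.59 in spleen (adjusted p = 0.00619) and 1.56 ± 0.56 in lung (adjusted p = 0.0663).

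Since the members moved together, the promoter sequences of RefSeq (build GRCm38.p6, 250 bases before to 50 after the start of a gene) were searched for 4 words of the kind that E2F factors bind, TTTCCCGC, TTTCGCGC, TTTGCCGC and TTTGGCGC, on both strands. Matches may overlap when a word on one strand runs into a word on the other. Of the 58 members, 45 had a promoter in the table, and 15 of these (33.3%) held at least 1 match. A match was found for 4.8% of the 9463 tested genes with a promoter in the table, and for 2.6% of all 27025 genes in it. Of the 15 members, 7 were licensing genes (Orc1, Cdc6, Cdt1, Mcm3, Mcm5, Mcm6 and Mcm7), and none encoded an enzyme of nucleotide supply or a factor of chromatin assembly. A match is a description of letters and not a binding site, and a window without these letters says nothing about the factor.

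The stretches below are printed for the most abundant member of each functional group that rose in spleen ∆Foxp3 and held a match before its start, to show where the words lie beside genes with these changes. They are written 5′ to 3′ on the strand of the gene, with the matched bases in capitals. In Mcm6 (chr1:128359768-128359855, minus strand) TTTGGCGC starts 110 bases before the gene start and overlaps TTTCGCGC on the other strand, which gives the run of capitals. In Gins3 (chr8:95633478-95633565, plus strand) the match is to TTTCCCGC on the opposite strand, 41 bases before the start. In Pola1 (chrX:93632246-93632333, minus strand) it is to TTTGGCGC on the opposite strand, 138 bases before the start. In Rfc3 (chr5:151651179-151651258, minus strand) TTTCGCGC lies 10 bases before the start, and TTTCCCGC follows on the opposite strand. In Brca2 (chr5:150522413-150522500, plus strand) TTTCCCGC lies on the opposite strand 168 bases before the start, beside a gene with a smaller change of 0.91, while Mcm6, Gins3, Pola1 and Rfc3 changed by 1.86, 1.90, 2.41 and 2.08 on the log2 scale in spleen.
Mcm6: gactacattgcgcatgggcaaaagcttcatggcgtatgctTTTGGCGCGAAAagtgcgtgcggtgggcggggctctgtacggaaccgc
Gins3: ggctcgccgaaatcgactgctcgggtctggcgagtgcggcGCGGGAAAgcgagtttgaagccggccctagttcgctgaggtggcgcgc
Pola1: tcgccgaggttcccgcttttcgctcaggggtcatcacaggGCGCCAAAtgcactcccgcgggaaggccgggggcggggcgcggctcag
Rfc3: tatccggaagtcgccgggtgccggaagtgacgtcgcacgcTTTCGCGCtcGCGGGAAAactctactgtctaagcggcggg
Brca2: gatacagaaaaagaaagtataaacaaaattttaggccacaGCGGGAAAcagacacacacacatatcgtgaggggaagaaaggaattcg

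In the lungs the genotype comparison gave the same direction with smaller differences. Of the 58 members, 44 were higher in lung ∆Foxp3 and 0 lower, where 9.74% of all genes tested were called higher, 10.5% lower and 20.2% in either direction. The median of the members was 1.20 on the log2 scale and −0.01 over all genes tested. For 53 members the groups did not overlap, as for 23.2% of all genes tested, and the fold change was above 0 for all 58. Those called were 10 of 11 licensing genes, 5 of 6 helicase activators, 7 of 8 polymerase and primase genes, 8 of 11 clamp, loader, strand-coating and joining genes, 4 of 5 nucleotide enzymes, 2 of 4 chromatin assembly genes, 5 of 9 recombination genes and 3 of 4 checkpoint genes. After Lig1, the lowest adjusted p were those of Gins2 (2.07 ± 0.35, adjusted p = 0.00092), Tyms and Pola2. The count of members called was 29 when lung WT 1 was left out, 28 when lung ∆Foxp3 3 was left out and 18 when all 3 atypical libraries were, and all of these were higher in ∆Foxp3.

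All 44 members called in lung were among the 56 called in spleen, which is 78.6% of the spleen calls and 100% of the lung calls. Over all genes tested, 909 genes were higher in both tissues, 48.4% of the spleen and 70.2% of the lung calls. The genotype comparisons of the tissues share no library. With 56 of the 58 members called in spleen, however, a nearly complete overlap of the member calls was fixed in advance. For 56 of the 58 members the difference was larger in spleen, and Gins4 and Rpa3 were the exceptions. The test of that difference, lung minus spleen, passed for 10 members, all with the smaller value in lung, where 0.782% of all genes tested passed in that direction, 0.143% in the other and 0.925% in either. The 10 were Pole, Cdc45, Pola1, Lig1, Chaf1a, Atad2, Brca1, Exo1, Esco2 and Rad51ap1, from −1.31 ± 0.28 (Pola1) to −4.42 ± 0.73 (Esco2) on the log2 scale (adjusted p = 0.0411 and 0.0121). Of the 11 licensing genes and of the 5 nucleotide enzymes, none passed in the edgeR fit over all 12 libraries with the default filter, although their fold changes were all smaller in lung, and some members of both groups passed under other settings. This count moved with single libraries. It was 4 without spleen WT 2, 6 without spleen WT 3, 3 without spleen ∆Foxp3 1, 6 without spleen ∆Foxp3 2 and 24 without spleen ∆Foxp3 3. Of the lung libraries, leaving out WT 2 gave 4, WT 3 gave 3, ∆Foxp3 1 gave 1, and ∆Foxp3 2 or ∆Foxp3 3 gave 3. Pole was the member called under all 20 alternatives (adjusted p 8.14e-12 to 0.0257). By the labels the ∆Foxp3 allele also differs between the tissues, so tissue and allele cannot be told apart in this test.

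**Figure D3:**
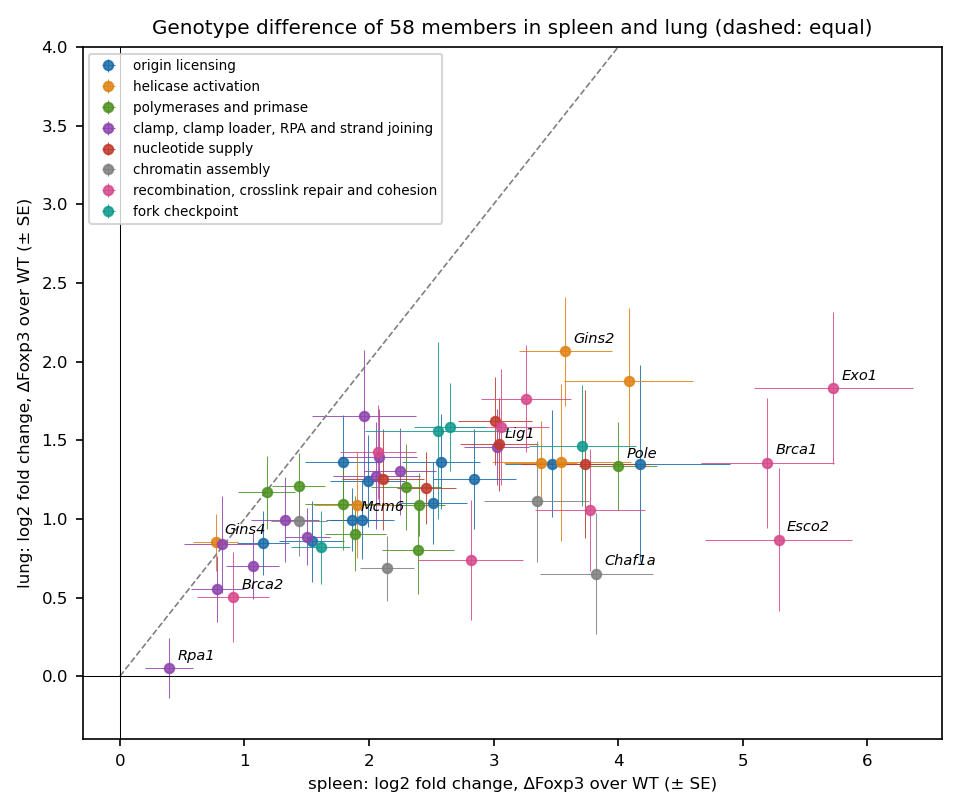
Log2 fold change of ∆Foxp3 over WT with its SE in spleen (horizontal axis) and in lung (vertical axis) for the 58 members, coloured by functional group, with a dashed line where both are equal. The points spread from 0.40 (Rpa1) to 5.73 (Exo1) in spleen and only from 0.05 (Rpa1) to 2.07 (Gins2) in lung, below the dashed line except for Gins4 and Rpa3.

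The smaller lung difference went with a higher level in lung WT. The difference of the genotype differences equals the tissue difference in ∆Foxp3 minus that in WT, so these are not separate findings. In WT Treg 30 members were higher in lung than in spleen and 0 were lower, where 3.1% of all genes tested were called higher, 1.03% lower and 4.13% in either direction. With library totals in place of TMM factors the split of all genes called was 371 higher and 260 lower, against 412 and 137, while the members stayed at 30 and 0. The median of the members was 1.09 on the log2 scale, and −0.00117 over all genes tested. The groups did not overlap for 45 members, against 13.2% of all genes tested in that direction. The lowest adjusted p were those of Pole, at 2.49 ± 0.31 (SE; adjusted p = 0.000432), and Pola1, at 1.63 ± 0.21 (SE; adjusted p = 0.000492). The next were Chaf1a, Cdc45, Brca1 and Atad2, at 3.45 ± 0.45, 2.17 ± 0.29, 4.02 ± 0.53 and 1.50 ± 0.21 (adjusted p = 0.00067 to 0.00127). They were followed by Esco2, Lig1, Exo1 and Cdc6, at 4.13 ± 0.58, 1.68 ± 0.25, 4.26 ± 0.64 and 2.31 ± 0.37 (adjusted p = 0.00133 to 0.00298), and by Rad51ap1 and Fanci, at 2.57 ± 0.44 and 2.38 ± 0.42 (adjusted p = 0.00406 and 0.0047). This comparison shares the spleen WT libraries with the spleen genotype comparison, so both rest on the same low values there.

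For all 11 licensing genes every lung WT library lay above every spleen WT library, but not all passed the test. Within the ring Mcm2 and Mcm4 did not pass, at 0.70 ± 0.30 and 0.80 ± 0.26 (adjusted p = 0.219 and 0.103). Mcm3, Mcm5, Mcm6 and Mcm7 passed, at 1.69, 1.24, 0.84 and 0.95. The call of Mcm7 (adjusted p = 0.049) was lost in 10 of 21 alternatives. The value of Mcm4 was near that of Mcm6, and the difference between subunits was not tested. Of the 11 clamp, loader, strand-coating and joining genes Lig1 alone passed, and the median of the 11 was 0.45. Of the 9 recombination, crosslink repair and cohesion genes 6 passed, and their median was 2.38. Pold2, Rpa3 and Gins4 were at 0.02 ± 0.23, −0.07 ± 0.31 and −0.12 ± 0.18 (adjusted p = 0.979, 0.932 and 0.779), Rpa3 and Gins4 with the lower mean in lung. The count of 30 was 18 without spleen WT 2 and 16 without lung WT 3.

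Markers of other cells moved with the tissue comparison in WT. Of 6 erythroid genes tested, 4 were higher in lung WT than in spleen WT, and the sum of the 8 erythroid markers in the table was 1974 to 4902 CPM in lung WT, 9.41 to 16.6 in spleen WT, 12.2 to 404 in spleen ∆Foxp3 and 1.98 to 405 in lung ∆Foxp3, nearly all of it globin and Alas2. Klf1 and Epor, which mark erythroid precursors, were at 0 to 0.259 and 0 to 0.431 CPM in lung WT and were highest in spleen ∆Foxp3 1, at 0.574 to 3.06 and 0.479 to 4.15 CPM over the 3 libraries of that group. In the lung genotype comparison 3 of the 6 fell. Among the lung WT libraries the erythroid sum was highest in library 2 and the member sum in library 3, and in spleen ∆Foxp3 these were libraries 1 and 2. In lung ∆Foxp3 both sums were highest in library 3, and in spleen WT both were highest in library 1. Thymocyte markers summed to 0.926 to 2.0048 CPM in spleen WT, 0 to 0.959 in spleen ∆Foxp3, 0.703 to 2.15 in lung WT and 0 to 1.38 in lung ∆Foxp3. With the genotype, of 3 B and plasma cell genes tested Ighm fell in both tissues, and the sum of that list was 1114 to 1274 and 1929 to 1971 CPM in spleen WT and lung WT and 78.2 to 160.4 and 134 to 261 in the ∆Foxp3 groups, with Mzb1 at 0 in all 12 libraries. Ms4a1, which marks B cells, was at 0 to 2.11 CPM over the 12 libraries. The macrophage, monocyte and dendritic cell markers summed to 357 to 521, 251 to 471, 252 to 502 and 159 to 236 CPM in WT and ∆Foxp3 spleen and then WT and ∆Foxp3 lung, most of it Ctss. Of 7 tested genes of this list the macrophage genes C1qa and Adgre1 were lower in lung WT than in spleen WT, at −7.51 ± 1.32 and −3.44 ± 0.92 (adjusted p = 0.00592 and 0.0492), and none was higher. Of 4 tested epithelial genes the surfactant gene Sftpc was higher in lung WT, at 4.92 to 63.961 CPM against 0 to 0.357 CPM in spleen WT. Between the ∆Foxp3 tissues 3 of the 7 macrophage, monocyte and dendritic cell genes were lower in lung. The endothelium and fibroblast list summed to 274 to 333, 94.9 to 146, 282 to 333 and 111 to 122 CPM in the same order, most of it Pecam1. Pecam1 fell with the genotype in both tissues. The endothelial genes Cdh5 and Kdr of that list were at 0 to 1.58 and 0 to 1.23 CPM over the 12 libraries. Over all libraries the neutrophil list summed to 4.82 to 33.2, the CD8 T and NK cell list to 19.2 to 84.9 and the epithelium list to 11.6 to 83.6 CPM. The part of other cells in the member levels was not tested.

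Between lung and spleen in ∆Foxp3 Treg, no member passed the test of edgeR in either direction, where 0.549% of all genes tested were higher in lung, 0.173% lower and 0.722% in either direction. The groups did not overlap for Chaf1a and Brca1 alone, both higher in lung, against 8.07% of all genes tested in that direction and 7.41% in the other. None of the 58 had an unadjusted p under 0.05, and none was called by DESeq2 or by limma. The median was 0.02 and the extremes were −0.48 ± 0.60 (Orc1) and 0.37 ± 0.54 (Chek1). For 47 of the 58 members the 95% interval of the difference lay within 1 log2 unit of 0 on both sides, and over all members the bounds ran from −1.76 (Orc1) to 1.53 (Chek1). For Mcm6 the difference was −0.03 ± 0.20, for Rrm1 −0.09 ± 0.29 and for Lig1 0.12 ± 0.24. Such intervals bound the difference for each gene and do not show that the groups are alike. The ∆Foxp3 groups differ by tissue and, in the labels, by allele, and these differences cannot be told apart.

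**Figure D4:**
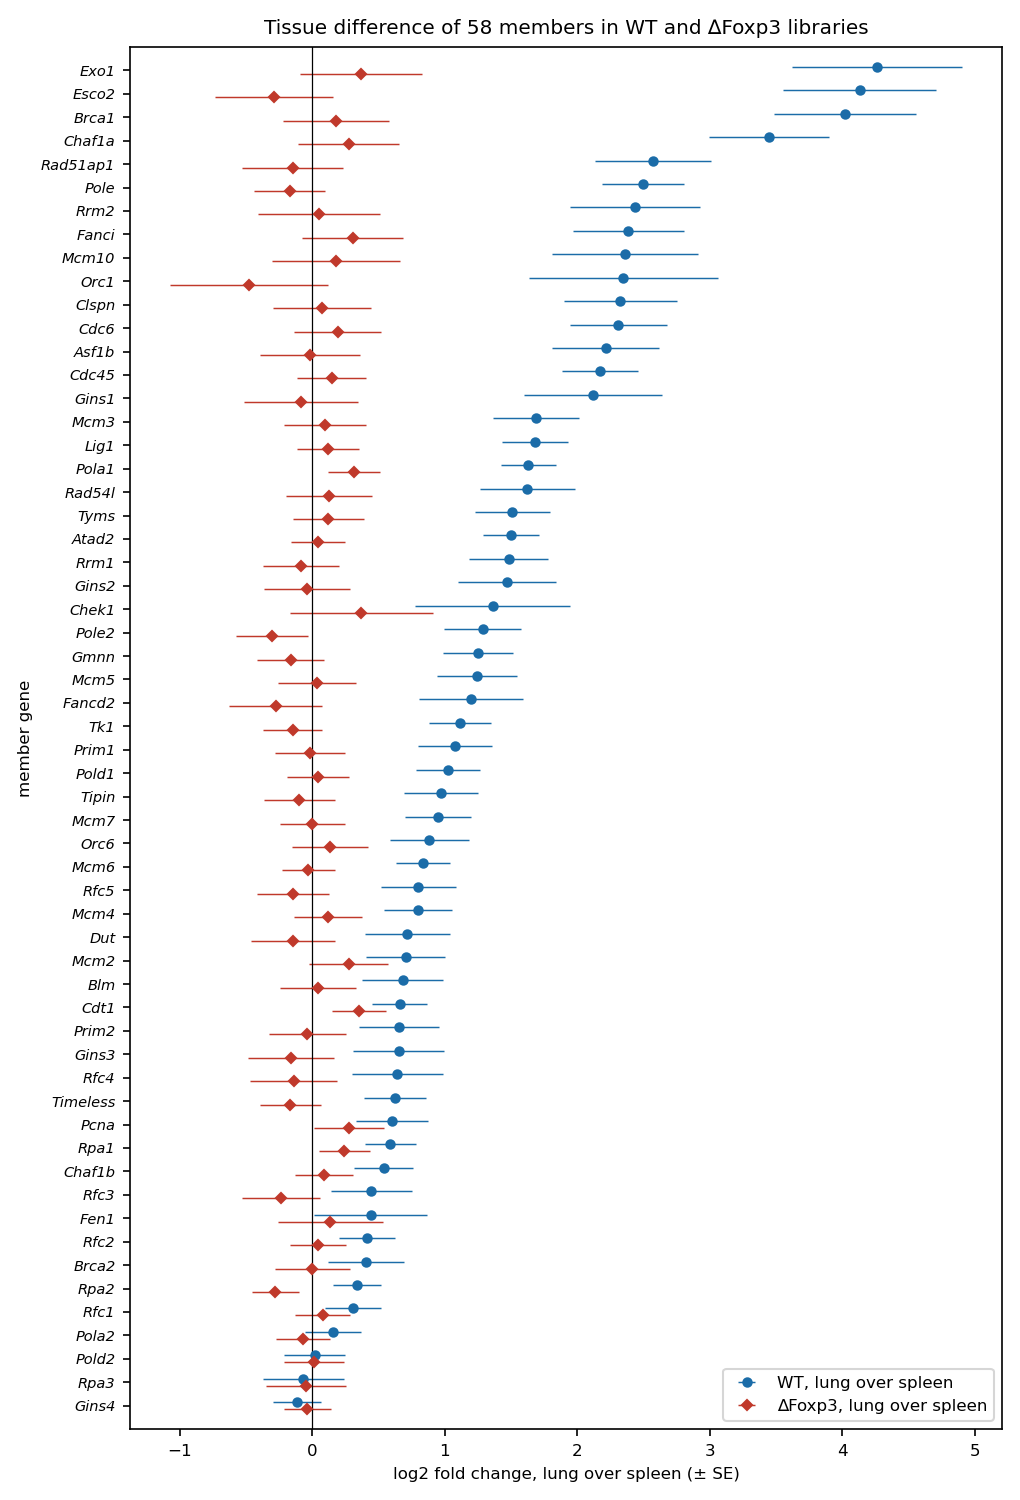
Log2 fold change of lung over spleen with its SE for each of the 58 members (rows, ordered by the WT value), with blue circles for WT and red diamonds for ∆Foxp3. The WT values run from −0.12 (Gins4) to 4.26 (Exo1), whereas all ∆Foxp3 values lie between −0.48 and 0.37.

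Genes of the same pathways outside the 58 gave a less uniform picture. Their counts are to be read beside the shares of all genes tested. In spleen 14.1% of these were called higher and 12.5% lower, and in lung 9.74% and 10.5%. Of 27 other replication factors 16 rose and 3 fell in spleen, and 11 rose and 0 fell in lung, with medians of 1.43 and 0.79. The 3 that fell are near the share of all genes called lower. The lowest adjusted p in spleen were those of Dscc1, a cohesion factor of the fork (3.84 ± 0.33; 3.73e-06), the origin kinase Cdc7 (1.88 ± 0.22; 2.93e-05) and Rnaseh2b, a subunit of the enzyme that removes ribonucleotides (1.62 ± 0.19; 3.08e-05). Those that fell were Mcmbp, Orc4 and Pold4, by 0.44 ± 0.14 (SE; adjusted p = 0.0334), 0.47 ± 0.16 (SE; adjusted p = 0.0388) and 0.68 ± 0.24 (SE; adjusted p = 0.0474). Within the origin recognition complex Orc1, Orc6 and Orc2 were called higher in spleen and Orc4 lower, and the difference between subunits was not tested. In lung the WT and ∆Foxp3 libraries overlapped for Orc4.

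Of 18 regulators of the passage from G1 to S, 14 rose and 1 fell in spleen, and 6 rose and 1 fell in lung, with medians of 1.75 and 1.06. Uhrf1, which directs methylation to newly copied DNA, rose by 4.05 ± 0.33, the cyclin gene Ccne1 by 2.63 ± 0.30 and the repressor gene E2f8 by 3.83 ± 0.49 in spleen (adjusted p = 3.24e-06, 2.64e-05 and 7.32e-05). The activator genes E2f1, E2f2 and E2f3 rose by 2.84, 0.95 and 1.88. Rb1, the retinoblastoma protein that holds E2F factors in check, was the gene that fell in both tissues, by 1.02 ± 0.23 (SE; adjusted p = 0.00489) in spleen and 0.70 ± 0.23 (SE; adjusted p = 0.0454) in lung.

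Of 20 other genes of nucleotide supply, 12 rose and 3 fell in spleen and 14 rose and 3 fell in lung, with medians of 0.78 and 0.86. Cad, the enzyme that opens pyrimidine synthesis, rose by 2.06 ± 0.22 (SE; adjusted p = 1.32e-05) in spleen. The same 3 genes fell in both tissues. Samhd1, which breaks down deoxynucleotides, fell by 1.88 ± 0.20 (SE; adjusted p = 1.32e-05) in spleen and 1.69 ± 0.20 (SE; adjusted p = 5.75e-05) in lung. Dguok and Tk2, the mitochondrial deoxynucleoside kinases, fell by 0.58 ± 0.16 (SE; adjusted p = 0.0166) and 1.18 ± 0.33 (SE; adjusted p = 0.016) in spleen. The cytosolic thymidine kinase Tk1 and the mitochondrial Tk2 were therefore called in opposite directions.

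Of 27 other recombination and crosslink repair genes 15 rose and 1 fell in spleen and 6 rose and 1 fell in lung. Rbbp8, which starts the trimming of broken ends, rose by 2.40 ± 0.27 and the crosslink repair gene Fanca by 2.98 ± 0.38 in spleen (adjusted p = 1.93e-05 and 6.6e-05). Rad52 fell in both tissues, by 0.94 ± 0.26 (SE; adjusted p = 0.0137) and 0.96 ± 0.26 (SE; adjusted p = 0.016). Other kinds of repair gave calls in both directions. Of 31 genes of end joining, mismatch and excision repair 5 rose, 4 fell and 22 did not pass in spleen, where 26.6% of all genes tested were called, with a median of 0.16, and 5 rose and 2 fell in lung, where 20.2% of all genes tested were called, with a median of 0.02. Both counts are near the share of all genes. Those that rose in spleen were Neil3, Parp1, Msh6, Ddb1 and Ung, from 0.95 (Ddb1) to 3.04 (Neil3), and those that fell were Lig4, Xpc, Ddb2 and Polb, by 2.38 ± 0.44 (SE; adjusted p = 0.00113), 1.05 ± 0.22 (SE; adjusted p = 0.00312), 0.78 ± 0.17 (SE; adjusted p = 0.00429) and 0.68 ± 0.19 (SE; adjusted p = 0.0156). Msh6 and Ung correct newly copied DNA, and Xpc and Ddb2 recognise damage for excision repair. They are some of the genes called, and a link between role and direction was not tested.

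Of 22 damage signalling genes and p53 targets, 20 were tested, and 3 rose and 2 fell in spleen, while 4 rose and 2 fell in lung. These counts are near those of any genes, of which 26.6% were called in spleen and 20.2% in lung. Cdkn1a, the inhibitor of cyclin-dependent kinases that blocks entry into S phase, was at 0.111, 1.61 and 1.54 CPM in spleen WT and 25.6, 92.3 and 25.7 CPM in spleen ∆Foxp3, and rose with the members by 5.56 ± 0.87 (SE; adjusted p = 0.000643). Values in the lung were 17.7, 4.92 and 4.92 CPM for WT and 69.2, 138 and 202 CPM for ∆Foxp3, with 3.89 ± 0.71 (SE; adjusted p = 0.00275). The checkpoint kinase gene Chek2 rose by 2.54 ± 0.38 (SE; adjusted p = 0.000217) and the p53 target Trp53inp1 fell by 1.27 ± 0.19 (SE; adjusted p = 0.000235) in spleen, and Ccng1, another such target, rose by 0.80 ± 0.27 (SE; adjusted p = 0.0423). Mdm4, an inhibitor of p53, fell by 0.46 ± 0.16 (SE; adjusted p = 0.0398). Of 20 mitosis genes, all rose in spleen and 9 in lung, with medians of 3.64 and 1.06, and 19 were higher in lung WT than in spleen WT, with a median of 2.34. Their summed level was 433, 271 and 367 CPM in spleen WT, 4809.6, 5074 and 2246 in spleen ∆Foxp3, 1566, 1434 and 2267 in lung WT and 2891, 4497 and 3494 in lung ∆Foxp3, so that spleen WT was again lowest and lung WT lay between, with spleen ∆Foxp3 3 just under lung WT 3.

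**Figure D5:**
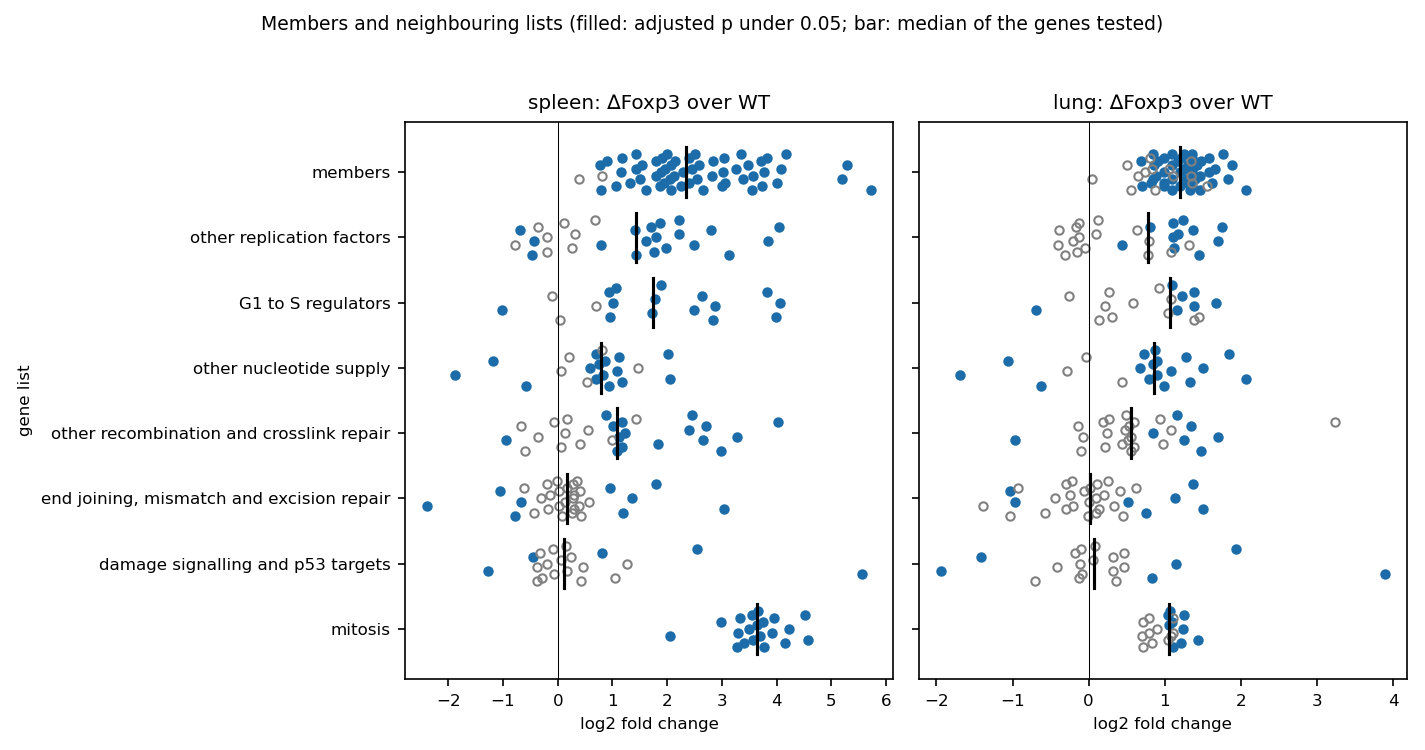
Log2 fold change of ∆Foxp3 over WT in spleen (left) and lung (right) for each tested gene of the 58 members and of 7 neighbouring lists, with filled points for an adjusted p under 0.05, open points for the others and a bar at the median. In spleen the members (median 2.34) and the mitosis genes (median 3.64) lie wholly to the right of 0, while the end joining, mismatch and excision repair genes (median 0.16) and the damage signalling genes (median 0.11) lie about 0.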

How the data were processed

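RNA was measured in 12 libraries of sorted Treg in 4 groups of 3, grouped by their titles. The values the authors deposited are raw, whole-number counts for each gene symbol. STAR 2.7.3a, Subread 2.0.0 with featureCounts, and the build mm10 are named in the submitters' processing notes, without annotation or strand setting. Per the labels' protocols, polyadenylated RNA was converted to cDNA, fragmented with Tn5 and taken through 18 cycles of PCR. No molecular identifiers are mentioned, so the floors are in counts and not in molecules. The SE and intervals come from the fit and rest on the spread among libraries. Annotated exons and coordinates are those of GENCODE M21 for the same build, and levels per kilobase use the merged exons of all transcripts. Totals of 3958892 to 9025150 counts limit the precision of genes near the floor of 3 counts.

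Counts were tested with edgeR 4.0.16 in R 4.3.3 (quasi-likelihood F test, robust dispersion, TMM factors, default low-count filter by group, group as the only term, 1 fit over 12 libraries, two-sided, Benjamini-Hochberg over 13295 genes, called under 0.05). Fold changes are log2 with the SE of the fit, taken as the fold change over the root of its F statistic. The members, functional groups and gene lists were chosen with earlier results of these data known. Named were, per functional group, the 2 most abundant members and those with the largest and smallest change in spleen, members not called in spleen, the lowest adjusted p of other comparisons, and per pathway list up to 3 called genes and those against its majority (some genes that this rule names are not reported here); other members named for their role were chosen after their values were seen. Alternatives were RLE factors, library totals, no filter, a floor of 10 CPM in 3 libraries, the Wald test of DESeq2 1.42.0, limma 3.58.1 (voom with quality weights), only the groups compared, the replicate number as a block, leaving out each library and, added after seeing the data, leaving out 3 libraries that stand apart. The fitting code was tested on simulated data.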

Additional observations from a re-analysis of the deposited data

Results flagged for a closer look

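For 10 members the genotype difference was smaller in lung than in spleen by the interaction test of edgeR, adjusted over all genes tested, and all 10 differences had this direction. The log2 values, lung minus spleen, were −2.66 for Pole, −4.42 for Esco2, −3.84 for Brca1, −3.17 for Chaf1a and −2.02 for Cdc45. They were −1.45 for Atad2, −3.90 for Exo1, −2.72 for Rad51ap1, −1.31 for Pola1 and −1.56 for Lig1. Adjusted p ran from 0.006 (Pole) to 0.046 (Lig1). Esco2, Brca1 and Exo1 were near the floor of 3 counts in spleen WT, and Chaf1a shares exons with Ubxn6. By the labels the ∆Foxp3 allele differs between the tissues as well, so tissue and allele cannot be told apart here.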

How the results depend on the processing

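Members higher in spleen ∆Foxp3 numbered 54 to 58 and those between the ∆Foxp3 tissues stayed at 0 in every alternative, and no called member changed sign in any comparison. Without single libraries the members called were 28 to 50 in lung, 16 to 33 between the WT tissues and 1 to 24 for the interaction, and all genes called were 2710 to 3575 in spleen, 1457 to 3364 in lung, 281 to 693 between WT tissues, 42 to 152 between ∆Foxp3 tissues and 36 to 178 for the interaction. Without the 3 libraries that stand apart, 18 members and 1321 genes were called in lung; the cause was not tested, beyond the fewer libraries. A fit of the spleen libraries alone called 2287 genes. With limma these were 4598 in lung, 1046 between WT tissues, 228 between ∆Foxp3 tissues and 190 for the interaction. With DESeq2 they were 1046, 235 and 304 for the last 3 comparisons, and without a filter 957, 292 and 363. For the interaction, 29 members were called without a filter and 21 with DESeq2. Of the 44 lung calls 16 held under every alternative, of the 30 between WT tissues 15, and of the 10 for the interaction 1. Whether libraries of the same number come from the same mice is not stated, and correlations in groups of 3 libraries cannot decide it. With the replicate block the interaction gave 74 genes and 6 members. The correlation of deviations between groups was −0.0766 to 0.0871 over the 18 same-numbered pairs and −0.093 to 0.085 over the 36 others. Replicates differed by more than sampling noise in every group. Depth limits Exo1, Esco2, Brca1 and Orc1 in spleen WT.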
